A study of Mus musculus with 20 samples.

Results

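The 10 serotonin receptor genes Htr1a, Htr1b, Htr1d, Htr1f, Htr2a, Htr2c, Htr3a, Htr4, Htr5a and Htr7 were followed across 20 RNA-seq libraries of the adult mouse hippocampus. They were chosen by gene symbol among the 48709 genes of the deposited count table, and all 10 were among the 19797 genes that passed the filter on low counts. Htr2c was read beside Ttr, because the choroid plexus, the secretory epithelium that borders the hippocampus in the ventricle, expresses both genes strongly.

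The study asked whether maternal inhalation of urban particles during pregnancy leaves lasting marks on the hippocampal transcriptome of the offspring. The mice were C57BL/6 by the labels and C57BL/6J by the study's methods. There were 4 groups of 5 samples: control females (17.71 to 18.29 weeks old), nPM females (18 to 18.29 weeks), control males (18.57 to 19.14 weeks) and nPM males (18.86 to 19.14 weeks). The dams of the nPM groups inhaled re-aerosolized nano-sized particulate matter (nPM) from gestational day 2 until birth, in sessions of 5 h on 3 days of each week, and the dams of the control (Ctrl) groups inhaled filtered air. The labels give the dose as 300 mg/m3, while the study's methods give the same figure in μg/m3. By the methods, offspring also underwent behavioral and glucose tolerance tests, males had been injected with the nucleoside label EdU to study neurogenesis, and the tissue was the hippocampus of the right hemisphere after saline perfusion. The adult offspring of each exposure came from a few litters, and the sources used here do not say which litter each sample came from, so samples of a group may be siblings. The p-values measure the spread between these samples. Because the tissue was bulk, fewer cells of a type and less RNA per cell cannot be told apart in any value below.

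Serotonin reaches the hippocampus in fibers from the raphe nuclei and acts there on several receptor classes. The receptors of the Htr1 and Htr5 groups couple to inhibitory Gi/o proteins, those of the Htr2 group to Gq and phospholipase C, and Htr4 and Htr7 to Gs and adenylyl cyclase, while Htr3a forms a cation channel. Htr1a is the best known postsynaptic receptor of hippocampal pyramidal and granule cells, Htr1b and Htr1d sit mainly on axon terminals where they restrain transmitter release, and Htr3a marks a class of interneurons.

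Total counts on genes were between 19092067 and 38663408 per library (median 29468930). Levels are given as counts per scaled library total (CPM). A count of 0 leaves room for up to 3 counts, which is 0.0776 to 0.157 CPM depending on the library, for counting error alone. All 13 markers of hippocampal principal neurons passed the filter, with a summed level of 1100 to 2135 CPM. The 14 choroid plexus markers together ranged from 43.9 to 8845 CPM. The 8 striatum markers together reached 517 CPM in nPM female 1 and were between 128 and 182 CPM in the other 19 libraries. nPM female 1 therefore stood apart, and the values below that it moved most are also given without it.

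Expression per length (RPKM, which is CPM per kilobase of gene, here scaled with TMM) separated the receptors into a moderately expressed set and 1 rare gene. Over the 20 libraries, Htr2c had the highest mean at 6.69 ± 5.22 RPKM (SD, n = 20). Htr1a followed at 6.49 ± 1.13, Htr4 at 4.91 ± 0.63, Htr2a at 4.73 ± 0.73 and Htr3a at 3.02 ± 0.58 RPKM. Htr1b had 2.69 ± 0.64, Htr5a 2.30 ± 0.50, Htr7 2.29 ± 0.53 and Htr1f 2.18 ± 0.37 RPKM. Htr1d was far below them at 0.0965 ± 0.0608 RPKM, from 0 to 28 counts per library, with 0 counts in nPM females 2 and 4.

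Neighbors in this order were compared within libraries by a sign-flip permutation test of log2 RPKM (two-sided, 9 pairs, Benjamini-Hochberg adjusted). The order was set by the means of these same libraries, so the p-values do not test it independently. Of the 9 steps, 3 exceeded the spread between libraries. Htr1a exceeded Htr4 in 18 of 20 libraries by 0.39 on the log2 scale, Htr2a exceeded Htr3a in 20 of 20 by 0.65, and Htr1f exceeded Htr1d in 20 of 20 by 4.79 (permutation p = 1e-05, the smallest that these permutations can give, and adjusted p = 3e-05 for each). The other 6 steps gave adjusted permutation p between 0.129 and 0.905. The first place of Htr2c rested on a few libraries with very high values: it was above Htr1a in 6 of 20 libraries, its median was 3.91 RPKM against a median of 6.16 RPKM for Htr1a, and it held rank 4 among control females. Leaving out nPM female 1, control male 2, control male 4 or nPM male 3 put Htr1a first, and 2 of the 9 steps then passed.

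**Figure D1:**
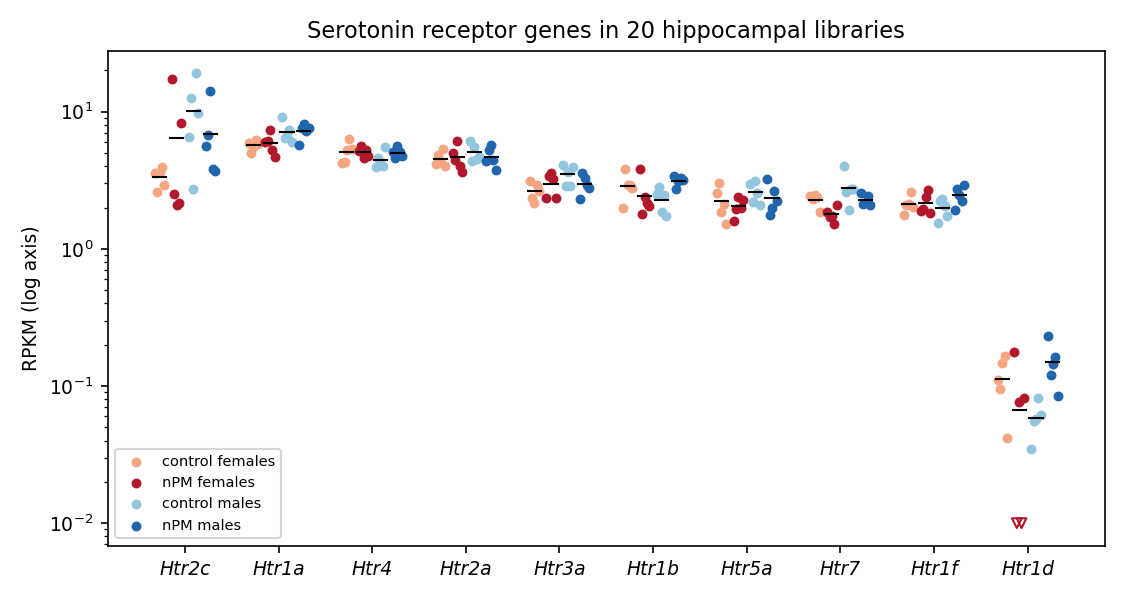
RPKM of the 10 serotonin receptor genes on a log axis, ordered by their mean; each point is 1 library, the colors are the 4 groups, black bars are group means, and open triangles at the lower edge mark the 2 libraries with 0 counts. Most of the genes lie in a shared band with overlapping groups, Htr2c spreads from 2.09 to 19.1 RPKM, and Htr1d stays at or below 0.232 RPKM.

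The receptors also differed in how steady they were. Htr4 varied least, with a coefficient of variation of 12.9% over the 20 libraries and a highest CPM 1.59 times the lowest. Htr2a (15.5%), Htr1f (17.2%), Htr1a (17.4%), Htr3a (19.1%), Htr5a (21.6%), Htr7 (23.4%) and Htr1b (23.7%) were in a narrow band above it. Htr1d reached 63.0%, at counts where sampling alone is large. Htr2c reached 78.0%, with a highest CPM 9.12 times the lowest, although its counts of 369 to 6807 per library leave little sampling error.

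The promoters of the 3 genes whose values carry the results below are shown first: Htr1b and Htr1d, which were both higher in nPM males, and Htr2c, which varied with Ttr. Each is the 250 bases just before a RefSeq start (GRCm38.p6, the mm10 assembly, in the direction of the gene): chr9:81633833-81634082 on the minus strand for Htr1b, chr4:136423274-136423523 on the plus strand for Htr1d, and chrX:146962263-146962512 on the plus strand for Htr2c. Capitals mark matches, on either strand, to 5 short motifs that do not overlap in these windows. The TATA box was searched as TATAAA. The CCAAT box was searched under its own letters. The GC box, a site of Sp family factors, was searched as GGGCGG. The core of the cAMP response element was searched as TGACG. The E-box of the kind that Snail factors bind was searched as CAGGTG.
Htr1b: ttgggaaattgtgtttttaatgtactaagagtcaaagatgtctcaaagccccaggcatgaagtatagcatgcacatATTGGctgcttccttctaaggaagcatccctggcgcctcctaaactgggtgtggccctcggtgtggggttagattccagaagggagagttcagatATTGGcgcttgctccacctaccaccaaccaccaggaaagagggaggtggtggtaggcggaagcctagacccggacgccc
Htr1d: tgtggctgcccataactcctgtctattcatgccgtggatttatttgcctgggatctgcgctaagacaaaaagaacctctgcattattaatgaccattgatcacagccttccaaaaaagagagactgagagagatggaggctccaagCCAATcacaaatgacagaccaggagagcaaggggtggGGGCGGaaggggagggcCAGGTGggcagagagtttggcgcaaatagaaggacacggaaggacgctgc
Htr2c: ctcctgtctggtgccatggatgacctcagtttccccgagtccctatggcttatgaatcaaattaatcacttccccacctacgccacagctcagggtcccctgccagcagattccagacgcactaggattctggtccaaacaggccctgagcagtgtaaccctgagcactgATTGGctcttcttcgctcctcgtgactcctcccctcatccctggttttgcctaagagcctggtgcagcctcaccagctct
The Htr1b window holds the CCAAT box on the opposite strand at 2 places, starting 174 and 79 bases before the start. The Htr1d window holds a CCAAT box 104, a GC box 67 and an E-box 50 bases before the start. The Htr2c window holds 1 match, the CCAAT box on the opposite strand at 80 bases. The TATA box and the cAMP response element core have no match in the 3 windows. RefSeq holds a further start of Htr1d, whose window (from position 136424362, not shown) has 3 GC boxes and an E-box and no CCAAT box. All 3 windows shown hold the CCAAT box. They were picked for the expression of their genes, and no other of the 9 windows found for 8 of the receptors holds it. Of the 32851 RefSeq promoter windows of this length, 33.8% hold the CCAAT box, 32.7% the GC box and 17.2% the E-box. The cAMP response element core is in 17.8% and the TATA box in 12.4%. These matches describe the letters of the windows and say nothing of what binds there.

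Within males, 2 of the 10 receptor genes were higher after gestational nPM at the study's threshold of p under 0.005 in limma-voom, and 0 were lower. Over all 19797 genes, 0.207% passed that threshold in males, 0.121% of them as higher. Both genes, Htr1b and Htr1d, encode Gi/o-coupled terminal receptors. The adjusted p of both was 0.963 (Benjamini-Hochberg, limma), so neither held after correction over all genes.

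Htr1b (ENSMUSG00000049511.5, chromosome 9, 81628291 to 81633828, minus strand, mm10) was measured at 11.8, 13.3, 8.79, 11.6 and 8.27 CPM in control males 1 to 5. nPM males 1 to 5 had 16.01, 12.9, 14.7, 15.5 and 14.97 CPM. The nPM males were tightly grouped (14.8 ± 1.19 CPM, n = 5) above the control males (10.8 ± 2.14, n = 5), and the groups overlapped only because control male 2 exceeded nPM male 2. The log2 fold change was 0.49 (SE 0.13, 95% interval 0.21 to 0.77, limma p = 0.00242), a 1.41-fold difference, and the exact permutation test gave p = 0.0159. Htr1b overlaps the gene D430036J16Rik on the opposite strand, which had a mean of 104 counts per library against 388 for Htr1b. The strand setting of the counting is not given in the sources used here, so reads of the 2 genes cannot be told apart with certainty. D430036J16Rik itself differed by 0.04 between nPM and control males on the log2 scale (SE 0.19, exact permutation p = 0.873).

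Htr1d (ENSMUSG00000070687.11, chromosome 4, 136423524 to 136444398, plus strand) had 3, 5, 5, 10 and 7 counts in control males 1 to 5 and 28, 12, 16, 19 and 9 counts in nPM males 1 to 5. After scaling these were 0.112, 0.179, 0.185, 0.261 and 0.196 CPM in control males and 0.742, 0.384, 0.465, 0.525 and 0.272 CPM in nPM males. Every nPM male was above every control male in CPM, although the lowest nPM male (0.272 CPM) was close to the highest control male (0.261 CPM). Groups that did not overlap were found for 0.662% of all genes in males. The log2 fold change was 1.24 (SE 0.35, 95% interval 0.48 to 2.00, limma p = 0.00395), and the exact permutation p was 0.00794, the smallest that 5 samples against 5 allow.

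The side of the threshold on which both genes fell was not stable. With each male library left out in turn, Htr1b stayed higher by 0.39 to 0.56 on the log2 scale, with p under 0.05 in 10 of 10 fits and under 0.005 in 4 (limma p from 0.00123 to 0.00843). Htr1d stayed higher by 1.05 to 1.40, with p under 0.05 in 10 of 10 fits and under 0.005 in 2 (limma p from 0.00132 to 0.0111). The thalamus markers averaged 2.07 to 2.85 log2 CPM in control males and 2.43 to 3.55 in nPM males. The 3.55 was that of nPM male 1, which was also the highest male for Htr1b and Htr1d. The other nPM males had 2.43 to 2.59, inside the range of the control males. With the thalamus marker mean as a covariate Htr1b differed by 0.46 and Htr1d by 1.05 and neither passed 0.005. Neither passed it in 1 fit of the 4 groups. The part of the thalamus markers in the differences of Htr1b and Htr1d was otherwise not tested.

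The other 8 receptors did not pass in males. Htr1f, a Gi/o-coupled receptor that triptans also bind, had 4.95 ± 0.82 CPM in control males and 6.17 ± 0.99 in nPM males (log2 fold change 0.31, 95% interval -0.02 to 0.64, limma p = 0.0625, exact permutation p = 0.0794). Htr4, a Gs-coupled receptor of principal neurons, had 20.7 ± 3.12 and 23.5 ± 1.93 CPM (0.19, 95% interval -0.03 to 0.41, limma p = 0.0905, exact permutation p = 0.111). Htr1a differed by 0.04, and the interval of -0.23 to 0.31 leaves room for differences of that size in either direction. Htr2a, Htr3a, Htr5a and Htr7 had differences of -0.09, -0.24, -0.12 and -0.25, all with intervals that contain 0. 5 of the 10 log2 fold changes were positive, with a median of -0.03 against 0.00 over all genes.

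In females, 0 of the 10 receptors passed p under 0.005 in limma-voom, where 0.0909% of all genes did, and 1 had p under 0.05, where 1.99% of all genes did. With the edgeR quasi-likelihood test and with DESeq2 the count at 0.005 was also 0. Without nPM female 1 the count at 0.005 was again 0, and 3 receptors had p under 0.05 (Htr1b, Htr1d and Htr7), where 1.99% of all genes did. The 1 gene with p under 0.05 was Htr7 (ENSMUSG00000024798.15, chromosome 19, 35958734 to 36057507, minus strand), a Gs-coupled receptor known for its part in circadian timing and mood. Its level was 8.26, 7.91, 8.36, 8.07 and 6.27 CPM in control females 1 to 5 and 6.28, 5.82, 5.94, 5.20 and 7.06 CPM in nPM females 1 to 5. Control female 5 lay among the nPM females, and nPM females 1 and 5 were above it. The log2 fold change was -0.34 (SE 0.12, 95% interval -0.61 to -0.07, limma p = 0.0173, adjusted p = 0.9999), or 21.0% lower in nPM females, and the exact permutation test gave p = 0.0238.

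The thalamus markers that passed the filter, 6 of 7, had a mean log2 CPM of 2.49 to 3.25 in control females and 2.18 to 2.79 in nPM females, and Gbx2 was below the filter. With that mean as a covariate, Htr7 differed by -0.24 in females (limma adjusted p = 0.99967) and no longer had p under 0.05. The part of the thalamus markers in this difference was otherwise not tested.

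Htr1d had 11, 8, 15, 19 and 3 counts in control females and 17, 0, 7, 0 and 8 counts in nPM females. The 2 libraries at 0 and the highest nPM library put the nPM females on both sides of the controls, and the log2 fold change of -1.34 had a 95% interval of -3.00 to 0.32 (limma p = 0.104, exact permutation p = 0.214). Leaving out nPM female 1 gave -1.92 (95% interval -3.57 to -0.27, limma p = 0.0261, exact permutation p = 0.0556). Htr1b had 9.44, 18.0, 13.8, 13.9 and 13.2 CPM in control females and 18.2, 8.49, 11.2, 10.2 and 9.69 CPM in nPM females. nPM female 1, the library with the high striatum markers, was the highest of all 20 for Htr1b, while the other 4 nPM females were below 4 of the 5 control females. The difference was -0.22 (95% interval -0.67 to 0.24, limma p = 0.325, exact permutation p = 0.317). Leaving out that library gave -0.41 (95% interval -0.80 to -0.03, limma p = 0.0373, exact permutation p = 0.0635). Htr1a, Htr1f, Htr2a and Htr4 differed by 0.05, 0.01, 0.04 and 0.01 on the log2 scale, and the widest of their intervals was that of Htr1f, from -0.33 to 0.35.

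**Figure D2:**
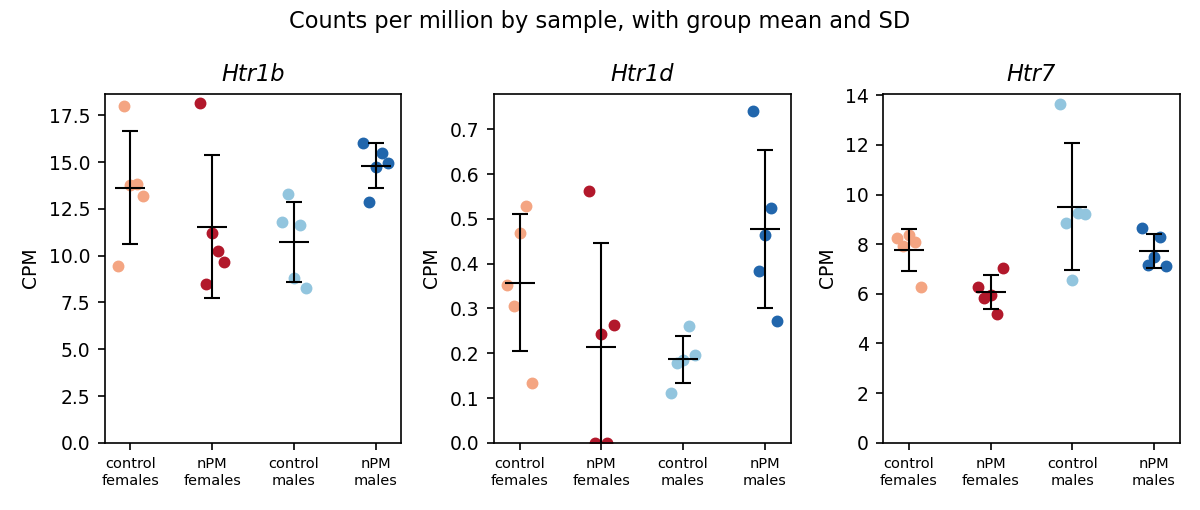
CPM of Htr1b, Htr1d and Htr7 in each library, with the group mean as a horizontal mark and 1 SD as a bar (n = 5 in each group; the bar of Htr1d in nPM females runs below 0 and ends at the axis). Htr1b in nPM males sits between 12.9 and 16.01 CPM, Htr1d in nPM males between 0.272 and 0.742 CPM, and Htr7 in nPM females between 5.20 and 7.06 CPM, with nPM female 1 the highest nPM female for Htr1b and Htr1d.

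Over both sexes, with sex as a covariate, 0 of the 10 receptors passed p under 0.005 in limma-voom, where 0.141% of all genes did. Htr7 alone had p under 0.05, where 2.1% of all genes did. It was lower in both sexes, with 13.6, 8.86, 6.57, 9.25 and 9.22 CPM in control males and 8.64, 7.18, 7.49, 8.29 and 7.11 CPM in nPM males. Control male 1 was the highest of all 20 libraries and control male 3 was below all 5 nPM males. The pooled log2 fold change was -0.30 (SE 0.10, 95% interval -0.51 to -0.09, limma p = 0.00739, adjusted p = 0.9998), or 18.6% lower, and permuting the exposure within each sex gave an exact permutation p of 0.00545. The difference within males alone was -0.25 (SE 0.16, limma p = 0.133, exact permutation p = 0.183). The interaction of sex and exposure for Htr7 was 0.10 (95% interval -0.33 to 0.53), so the difference between the sexes was not resolved. The count tests placed Htr7 past the threshold of 0.005, with -0.33 in the edgeR quasi-likelihood test (adjusted p = 0.99977) and in DESeq2 (adjusted p = 0.9995).

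The difference of the nPM effect between the sexes was tested by the interaction term over all 20 samples. At p under 0.005, 0 of the 10 receptors passed in limma-voom, in the edgeR quasi-likelihood test and in DESeq2, where 0.217% of all genes did in limma-voom. At p under 0.05, 2 of the 10 did, where 3.79% of all genes did. These were again Htr1b and Htr1d, which were called higher in males above, so the terms share the male samples with that result. The effect in males minus that in females was 0.72 for Htr1b (SE 0.26, limma p = 0.0106, exact permutation p = 0.017). For Htr1d it was 2.59 (SE 0.84, limma p = 0.00586, exact permutation p = 0.00857). The adjusted p of both was 0.987 in limma. Here and below, the exact permutation of this term reassigned exposure within each sex. Its p is therefore for no nPM effect in either sex, and it does not test equal effects in the sexes.

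nPM female 1 moved both interaction terms. Without it the term was 0.90 for Htr1b (limma p = 0.000701, exact permutation p = 0.00113) and 3.23 for Htr1d (limma p = 0.000732, exact permutation p = 0.00085). With the mean of the striatum markers as a covariate over all 20 samples it was 0.74 and 2.62, with both past 0.005 and a limma adjusted p of 0.979 for both. With the mean of the thalamus markers it was 0.73 and 2.01, with neither past 0.005 and a limma adjusted p of 0.998 for both. Across the 20 libraries the log2 CPM of Htr1b had a Pearson correlation of 0.48 with the striatum marker mean and that of Htr1d also 0.48, given as descriptions over libraries in which nPM female 1 carries the highest marker mean (5.03 against 1.70 to 3.27). Without that library the values were 0.33 and 0.56.

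**Figure D3:**
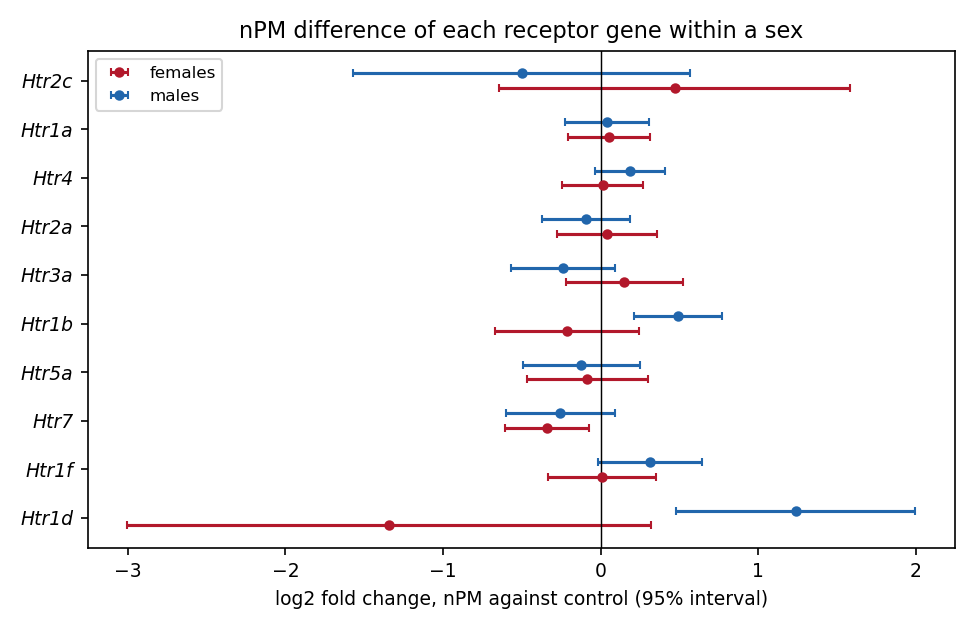
Log2 fold change of each receptor gene, nPM against control, in females (red) and males (blue), from limma-voom; points are estimates and bars are 95% intervals (5 against 5 samples in each sex). The intervals of Htr1b and Htr1d in males and of Htr7 in females lie off 0, and those of Htr2c and of Htr1d in females are the widest.

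Males and females differed in 31.1% of all genes at p under 0.005 in limma-voom, and 1 of the 10 receptors passed that threshold. At an adjusted p under 0.05, 2 of the 10 receptors passed against 40.4% of all genes. The receptors therefore held a smaller share of calls than the transcriptome as a whole, which was not tested. Sex went with age in the labels (no male was as young as the oldest female) and with the EdU injections, and these cannot be told apart here.

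The receptor that passed was Htr1a (ENSMUSG00000021721.4, chromosome 13, 105443693 to 105448133, plus strand). It had a lowest, median and highest level of 22.2, 25.8 and 27.5 CPM in control females and 20.7, 26.8 and 32.6 CPM in nPM females. Control males had 26.6, 29.5 and 40.6 CPM, and nPM males had 25.6, 33.7 and 36.4 CPM. The sexes overlapped, with the male medians above the female medians in both exposures. The log2 difference of Htr1a, males minus females, was 0.30 (SE 0.09), or 23.2% higher, with a limma adjusted p of 0.00795 and an exact permutation p of 0.00274 when sex was permuted within each exposure. For Htr7 it was 0.29 (SE 0.10), with a limma adjusted p of 0.0273 and an exact permutation p of 0.00501. With age in weeks as a covariate the difference of Htr1a was 0.29 (limma adjusted p = 0.934) and that of Htr7 turned to -0.22 (limma adjusted p = 0.961), in a fit where 84 genes passed in place of 6147. Htr4 was the receptor with a lower level in males, by 0.10 (95% interval -0.26 to 0.07).

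Htr2c (ENSMUSG00000041380.13, chromosome X, 146962513 to 147197277, plus strand) encodes the Gq-coupled receptor that is most abundant in the choroid plexus epithelium. It is also a gene whose transcripts undergo RNA editing, and its introns host several small RNA genes, of which 8 in the annotation lie on the same strand with at most 22.4 counts on average. Its level was 33.2, 24.0, 34.0, 37.0 and 27.2 CPM in control females 1 to 5. nPM females 1 to 5 had 161, 23.6, 19.5, 20.2 and 77.6 CPM. Control males had 61.5, 117, 25.4, 178 and 90.6 CPM, and nPM males had 52.2, 63.6, 133, 35.9 and 34.4 CPM. Control females were uniformly low, and each of the other groups mixed low libraries with libraries several times higher.

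Ttr, which encodes the thyroid hormone carrier transthyretin, was at 13.9, 233, 45.9, 430 and 279 CPM in control females 1 to 5. The nPM females had 7409, 59.6, 23.2, 32.5 and 1579 CPM. Control males 1 to 5 had 56.2, 4528, 10.7, 6587 and 2687 CPM. The nPM males had 36.6, 2815, 4973, 125 and 736 CPM. The libraries with the most Ttr were those with the most Htr2c, such as nPM females 1 and 5, control males 2, 4 and 5 and nPM male 3. nPM male 2, at 2815 CPM of Ttr, had only 63.6 CPM of Htr2c. That was close to the 61.5 CPM of control male 1, at 56.2 CPM of Ttr. Ttr spanned a 690-fold range without splitting into separate clusters, since the widest gap between neighboring libraries was 1.10 on the log2 scale.

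On the log2 scale Htr2c and Ttr had a Pearson r of 0.82 over the 20 libraries (permutation p = 1e-05, the smallest these permutations can give) and a Spearman rho of 0.81 (permutation p = 3e-05). Adjusted over the 10 receptors the values were 1e-04 and 3e-04. Without nPM female 1 and control male 4, the libraries farthest from the median of Ttr, r was 0.76. After centering on the 4 group means r was 0.82 (permutation p = 0.00038), as high as before centering. Groups of 5 are too small for an r of their own. The relation was not visible in control females, which stayed between 24.0 and 37.0 CPM of Htr2c over 13.9 to 430 CPM of Ttr. With the mean of the 14 choroid plexus markers in place of Ttr, r was 0.87. Htr2c also had r = 0.63 with the striatum markers and r = 0.68 with the meningeal fibroblast markers, and without nPM female 1 these were 0.85, 0.59 and 0.68 for the choroid plexus, striatum and meningeal lists. The shares of these tissues in the level of Htr2c cannot be told apart by such values.

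On the linear scale, a straight line of Htr2c on Ttr had a slope of 1.96 CPM of Htr2c per 100 CPM of Ttr (SE 0.13, r = 0.96) and an intercept of 30.5 CPM (SE 3.75). They were 2.08 (SE 0.16) and 29.6 CPM (SE 3.71) without nPM female 1. Per kilobase the intercept was 3.26 RPKM (SE 0.40), a level that would put Htr2c between Htr2a and Htr3a in the order above. This is an extrapolation to a Ttr of 0, and 8 of the 20 libraries had at most 59.6 CPM of Ttr. The residuals of Htr2c around the line were -0.73 ± 16.3 CPM in nPM males and 9.77 ± 14.6 CPM in control males (n = 5 each, exact permutation p = 0.31). They were -5.76 ± 12.5 CPM in nPM females and -3.28 ± 6.30 CPM in control females (n = 5 each, exact permutation p = 0.778).

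**Figure D4:**
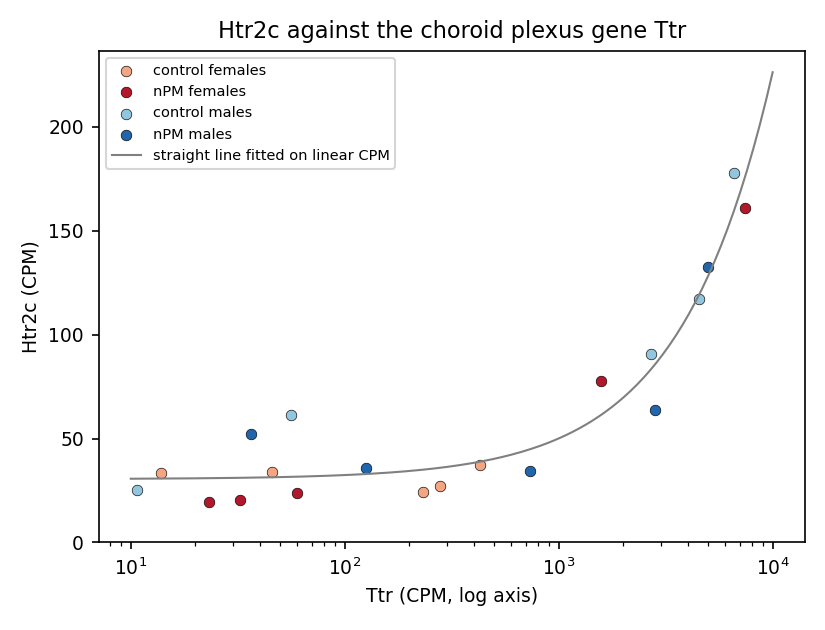
Htr2c (CPM) against Ttr (CPM, log axis) in the 20 libraries, colored by group; the gray curve is the straight line fitted on linear CPM, which bends because the horizontal axis is logarithmic. The 8 libraries with 10.7 to 59.6 CPM of Ttr lie between 19.5 and 61.5 CPM of Htr2c, and the 6 libraries with 2687 to 7409 CPM of Ttr lie between 63.6 and 178 CPM.

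The nPM difference of Htr2c was not resolved in either sex, and its interval was wide: -0.50 in males (95% interval -1.57 to 0.57, exact permutation p = 0.429) and 0.47 in females (95% interval -0.64 to 1.58, exact permutation p = 0.532). Without nPM female 1 the value in females turned to -0.03 (95% interval -0.78 to 0.71, exact permutation p = 0.905). With Ttr as a covariate the values were -0.51 in males (SE 0.28) and 0.26 in females (SE 0.30), and neither had p under 0.05. Between males and females Htr2c differed by 0.87 (SE 0.39, limma p = 0.0365, exact permutation p = 0.0548), and the limma adjusted p was 0.0800. With Ttr as a covariate the difference was 0.42 (SE 0.24, limma adjusted p = 0.173). Without nPM female 1 the difference between the sexes was 1.15 (limma p = 0.00293, exact permutation p = 0.00841), with a limma adjusted p of 0.0105. The summed choroid plexus markers had a median of 315 CPM in control females and 101 CPM in nPM females, and among males it was 3158 CPM without and 904 CPM with exposure to nPM. In females the fitted differences went the other way from these medians: 13 of the 14 markers had a positive log2 fold change (median 0.92, 0 with p under 0.05 in limma-voom), and the mean marker score was 2.64 in nPM and 1.98 in control females. Without nPM female 1, 4 of the 14 were positive and the median was -0.24.

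Among the other receptors, the relation with Ttr before centering was weaker than that of Htr2c. Htr5a, a Gi/o-coupled receptor, had r = -0.45 with Ttr over 20 libraries (permutation p = 0.048, adjusted p = 0.24 over the 10 receptors). After centering on the groups r was -0.62 for Htr5a (permutation p = 0.00425, not adjusted over the receptors). The remaining 8 had r between -0.13 and 0.29 before centering.

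The marker lists of neuron classes described the receptors further, as correlations over the 20 libraries that share depth and dissection and carry no test. Htr4 had r = 0.67 with the principal neuron markers, and Htr1f had r = 0.51 with them. Htr5a had r = 0.73 with the interneuron markers, 0.65 with the neocortex markers and -0.69 with the principal neuron markers. Htr7 had r = 0.67 with the interneuron markers and -0.58 with the principal neuron markers. Htr3a had r = -0.63 with the thalamus markers, and only 0.23 with the interneuron markers. After centering on the 4 group means, Htr7 had 0.43 and -0.54 with the same lists, Htr4 had 0.60 and Htr1f 0.41. Htr5a then had 0.69, 0.68 and -0.68, and Htr3a had -0.63 and 0.098.

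The receptors did not vary as a group. Over the 45 pairs r ranged from -0.59 to 0.61 with a median of 0.11. Htr1a moved with Htr3a (0.61) and Htr2a (0.60), Htr1b with Htr1d (0.59), and Htr1b was opposed to Htr3a (-0.59).

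The genes most like each receptor, by Pearson r of log2 CPM over the 20 libraries among 19796 genes, were closer than any other receptor was. For Htr2c they were Sept10, Spata6 and Sowahc (r = 0.96 each). For Htr5a they were Plcxd2 (0.92), Pcdh7 (0.91) and Prkar1b (0.89), and for Htr7 they were Cnpy1 (0.88), Ppp1r17 (0.87) and Fstl1 (0.85). Cnpy1 and Ppp1r17 are rare here, with means of 16.2 and 11.7 counts. For Htr3a they were Kif1bp, Dync1i1 and Dap3 (0.87 to 0.83), for Htr1f Scn3b, Kcnd2 and Ndst4 (0.86 to 0.82) and for Htr1a Kctd2, Rab8b and Nfu1 (0.84 to 0.82). For Htr1d they were Ebf2, Dynlt1f and Spint1 (0.86 to 0.78), for Htr2a Entpd6, Ap2a2 and Ociad2 (0.77 to 0.75), for Htr1b Snai2, Fam120b and Kdm7a (0.77 to 0.73) and for Htr4 Uprt, Onecut2 and Ptpro (0.77 to 0.75). With this many genes compared in 20 libraries, high values are found for any gene.

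Of 4 further serotonin receptor genes, Htr5b and Htr6 passed the filter, with means of 2.13 and 0.365 RPKM. Htr2b had at most 18 counts in a library and Htr3b at most 2, and both were below it. Neither Htr5b nor Htr6 passed p under 0.05 in an nPM comparison. Htr6, a Gs-coupled receptor, had a log2 difference of -0.61 between males and females (SE 0.18), with a limma adjusted p of 0.0109 and an exact permutation p of 0.00507.

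The genes that make, carry and break down serotonin, and those that carry the receptors' signals, were counted by branch. In limma-voom 0 of the 53 that passed the filter had p under 0.005 for nPM in males, in females, over both sexes or in the interaction, where 0.207%, 0.0909%, 0.141% and 0.217% of all genes did. At p under 0.05 there was 1 gene in males, where 4.28% of all genes had such a p, and there were 2 in females (1.99% of all genes), 0 over both sexes (2.1%) and 3 in the interaction (Ddc, Plcb4 and Adarb1, against 3.79%). In males this was Adcy5, an adenylyl cyclase of the Gs branch (78.8 ± 4.18 CPM in controls and 89.9 ± 6.92 after nPM, log2 fold change 0.19, limma p = 0.0165, exact permutation p = 0.0238). In females they were Ddc, the decarboxylase of serotonin and dopamine synthesis (10.1 ± 2.33 and 7.03 ± 1.001 CPM, -0.53, limma p = 0.00794, exact permutation p = 0.0159), and Plcb4, a phospholipase C of the Gq branch (65.5 ± 19.3 and 45.4 ± 5.89 CPM, -0.48, limma p = 0.0206, exact permutation p = 0.0556). The adjusted p of the 3 genes was 0.963 or above.

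By branch, the 10 tested genes of synthesis, transport and breakdown had median log2 fold changes of -0.01 in males and 0.01 in females. The medians were -0.05 and -0.02 for the 10 genes of the Gi/o branch and 0.04 and 0.01 for the 9 of the Gq branch. They were 0.03 and -0.04 for the 14 of the Gs branch and 0.00 and -0.04 for the 10 receptor partners and modifiers. The median over all genes was 0.00 in both sexes. Slc6a4, the serotonin transporter, was below the filter, with a median of 2 counts per library.

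**Figure D5:**
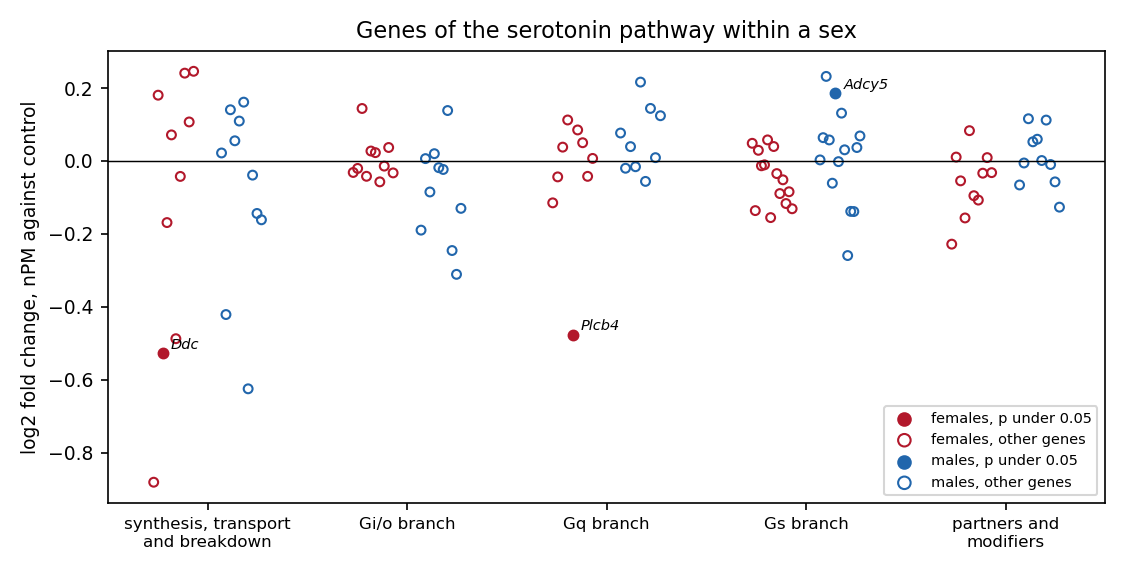
Log2 fold change, nPM against control, of the genes of 5 serotonin pathway lists in females (red) and males (blue); each point is 1 gene, filled where limma p was under 0.05. Adcy5 in males and Ddc and Plcb4 in females are the filled points, and most genes lie within 0.2 of 0.

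Between the sexes these genes differed in both directions: of the 53, 10 were higher and 8 lower in males at p under 0.005 (limma), where 31.1% of all genes passed in either direction. Of the synthesis, transport and breakdown genes, 3 of 10 were higher in males at p under 0.005 and 0 were lower: Tph2, the brain form of tryptophan hydroxylase (0.70), Qdpr, which recycles its cofactor (0.34), and Maoa, the oxidase that degrades serotonin (0.30). Tph2 was measured at 1.36 ± 0.51 CPM over the 20 libraries, Tph1 at 0.348 ± 0.147. Maob had p under 0.05 and was also higher. In the Gi/o branch Gnai1 and Gnai3, which encode inhibitory alpha subunits, were higher (0.42 and 0.34), and Gnao1 and the potassium channel gene Kcnj6 were lower (-0.26 and -0.52). In the Gs branch Creb1, Prkacb and Prkar2b were higher (0.35, 0.42 and 0.46), and Adcy9 and Rapgef3 were lower (-0.36 and -0.50). Of the partners and modifiers, S100a10, which binds some of the receptors, and Ric3, a chaperone of Htr3a, were higher (0.60 and 0.25). The scaffold gene Dlg4 and the editing enzymes Adar and Adarb1, which edit Htr2c transcripts, were lower (-0.49, -0.18 and -0.18).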

How the data were processed

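RNA of the hippocampus was measured by RNA-seq after depletion of ribosomal RNA in 20 samples, 5 per group, grouped by the sample labels. The authors checked reads with FastQC, trimmed with Trimmomatic where needed, aligned to mm10 with HISAT2 and counted per gene with featureCounts 1.5.0-p3 on Gencode M11. They deposited whole-number counts, without normalization. The authors also deposited gene lengths and the mean RPKM over the samples, which differed from the mean recomputed from the counts by at most 4.91e-11.

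The receptors, pathway lists and marker lists were chosen with earlier results of these data known. Named were the 10 receptors, Ttr, pathway genes with p under 0.005 in a fit, the other receptor genes, Tph1, Tph2, Slc6a4, Maoa and Maob, and the 3 genes most like each receptor. Adcy5, Ddc, Plcb4, Adarb1 in the interaction and D430036J16Rik were named after their values were seen. The values of 1 pathway gene are not reported here.

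Counts were kept by filterByExpr (minimum count 10, minimum total 15), scaled by TMM within the samples of each fit (edgeR 4.0.16) and fitted by limma-voom with an offset of 0.5 counts (limma 3.58.1, R 4.3.3). Tests were two-sided, with Benjamini-Hochberg values over 19797 genes. Single values were tested by exact permutation of log2 CPM (over both sexes within sex or exposure, chosen after seeing the data), and correlations by 100000 permutations. The 40 pairs of libraries of the same group differed by 14.8 to 92.6 times counting noise. Promoters came from RefSeq, whose table matched 8 of the 10 receptors. Alternatives were the edgeR quasi-likelihood test, DESeq2 1.42.0, RLE factors, every gene with at least 1 count, Ttr, age, striatum or thalamus covariates, a replicate block, 1 fit of the 4 groups, and each sample left out. The fits were tested on simulated data. Figures used Python 3.11.15, pandas 2.3.3 and matplotlib 3.10.9.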

Additional observations from a re-analysis of the deposited data

Results flagged for a closer look

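Control female 5 stood apart from the other 4 control females for Htr7, at 2.65 log2 CPM against 2.99 for the nearest of them, a gap of 0.808 of the group's whole range. Of the 40 sets of 5 libraries examined for the 10 receptors it was the 1 set past the 95% limit of Dixon's test, where chance gives about 2. Without this library Htr7 differed by -0.32 between nPM and control over both sexes (limma p = 0.00458, exact permutation p = 0.00265). Without control male 3 the same value was -0.36 (limma p = 0.000592, exact permutation p = 0.000315).

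The nPM effect differed between the sexes for Htr1b and Htr1d at p under 0.05 of the interaction term. The effect in males minus that in females was 0.72 for Htr1b (limma p = 0.0106, exact permutation p = 0.017) and 2.59 for Htr1d (limma p = 0.00586, exact permutation p = 0.00857), with a limma adjusted p of 0.987 for both. Leaving out 1 library at a time, the terms were between 0.62 and 0.90 and between 2.02 and 3.23, with p under 0.05 in 20 of 20 fits for each gene. The exact permutation p of these terms is for no nPM effect in either sex, and does not test equal effects in the sexes. Htr1d rests on 0 to 28 counts per library.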

How the results depend on the processing

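The number of the 10 receptors with p under 0.005 moved by 1 or 2 with the processing. Over both sexes it was 0, and 1 with the edgeR quasi-likelihood test, with DESeq2 and with age as a covariate, each time Htr7. In males it was 2, and 1 with Ttr or the striatum markers as a covariate, and 0 with the thalamus markers as a covariate, with the replicate block and in 1 fit of the 4 groups. In that last fit the sexes share 1 spread, and the limma adjusted p of Htr1b and Htr1d was 0.993. In females it stayed 0 under every alternative run. For the interaction it was 0, 1 with every gene with at least 1 count, and 2 with the striatum markers as a covariate. Between the sexes it was 1, 2 with edgeR and with DESeq2, and 0 with age as a covariate, where Htr2c turned to -1.48 and Htr7 to -0.22. With each sample left out the counts ranged from 0 to 1 over both sexes, 0 to 2 in males, 0 to 0 in females, 0 to 2 for the interaction and 0 to 2 between the sexes. The number of replicate pairs whose deviations correlated above 0.1 was 3 of 10, and 0 samples correlated best with their own number, so the numbers were not taken as pairs. With the replicate block Htr1b was 0.47 and Htr1d 1.24 in males, and the limma adjusted p of both was 0.977. The striatum and thalamus covariates and the linear scale for Htr2c were chosen after seeing the data. Without the filter 71, 130, 87 and 149 genes passed p under 0.005 over both sexes, in males, in females and in the interaction, in place of 28, 41, 18 and 43. With DESeq2 they were 43, 113, 55 and 89, and with age as a covariate 84 passed between the sexes in place of 6147. In males 68 passed with Ttr and 70 with the striatum markers as a covariate. In females 34 passed with the striatum markers, and with edgeR 66 passed in the interaction. The cause of these shifts was not tested. The order of the levels (3 resolved steps) did not change with the scaling. Nor did the counts of receptors with an exact permutation p under 0.05 (2 in males, 1 in females). No share over all genes is given for that test, so these counts cannot be set against one. Depth limits Htr1d most.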
